A study of Mus musculus with 12 samples.

Results

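The comparison is between resting CD8 T cells of mice homozygous for the Ikaros-Zn4 allele (Zn4) and of wild-type mice (WT), taken before any stimulation. It rests on 4 of the 12 libraries of the study, 2 Zn4 libraries and 2 WT libraries of 0 h, chosen by their labels alone. The cells of both genotypes were naive CD8 T cells from spleens of female C57Bl/6 mice of 6 weeks, enriched by negative selection and then sorted by surface markers, among them low or absent CD44. They were lysed directly after the sort. The other 8 libraries come, by their labels, from cells of the same kind kept for 12 h or 24 h on plates coated with anti-CD3 and anti-CD28. The labels name the allele without describing it and do not limit it to a cell type. Whether replicates came from separate animals is not in the labels, and every p-value below therefore measures the spread between these libraries. Of 12885 gene symbols in the table, 12726 passed the minimum of 1 RPKM in at least 2 libraries and were tested. RPKM is the read count of a gene divided by its length and by the depth of its library.

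Ikaros, the product of Ikzf1, is a zinc finger transcription factor of lymphocytes and their precursors that binds DNA and works largely with chromatin complexes such as NuRD. In the thymus and in mature T cells it is known for holding genes of other lineages and of effector cells silent and for setting the threshold of the response to the T cell receptor. Naive CD8 T cells are quiescent cells that have left the thymus, circulate through lymphoid organs and have not met their antigen.

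Ikzf1 itself stood at 129 and 137 RPKM in the Zn4 libraries, against 90.9 and 115 RPKM in the WT libraries. The log2 difference of 0.38 ± 0.10 (SE) was not called (adjusted p = 0.0764, limma). It was called without WT replicate 2 (adjusted p = 0.00971). The level of a whole gene cannot show an altered part of its transcript, so Ikzf1 gave no check of the genotype labels. Library depth, worked out from the steps in the RPKM values, was 26191173 and 26978970 reads for Zn4 and 25607382 and 24463249 reads for WT. Replicates correlated at r = 0.983 in Zn4 and r = 0.98 in WT across genes, and the SD of their log2 difference was 0.324 in Zn4 and 0.346 in WT.

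The defining transcripts of the sorted cells were abundant in both genotypes. Cd8a stood at 193 and 172 RPKM in Zn4 and at 185 and 187 RPKM in WT, and Ccr7, a homing receptor of naive cells, at 781 and 724 RPKM in Zn4 and at 624 and 657 RPKM in WT. Neither these nor Cd8b1, Cd3e, Cd3d and Trac were called. Cd44, the marker used in the sort, was low in all 4 libraries, at 0.535 and 0.99 RPKM in Zn4 and at 1.23 and 1.39 RPKM in WT. Markers of other cells were mostly at a few RPKM or less, with the exception of Ighm. Cd4 stood at 0.776 and 1.88 RPKM in Zn4 and at 0.136 and 2.09 RPKM in WT, and Tcrg-C1, a constant region of the gamma-delta T cell receptor, had 14 and 13 reads in Zn4 and 12 and 14 reads in WT. Ighm, the heavy chain gene of B cells, stood at 70.9 and 55.1 RPKM in Zn4 and at 170 and 86.1 RPKM in WT, and was not called (adjusted p = 0.121). The markers Cd79a, Ms4a1, Trdc, Sox13, Foxp3, Ncr1, Lyz2 and Itgax were looked for but were not among the listed gene symbols, so they were not analysed here. In bulk RNA, fewer cells that hold a transcript and less of it per cell cannot be told apart.

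More genes were higher than lower in resting Zn4 cells. At an adjusted p under 0.05, 728 of 12726 genes were called (5.72%), with 479 higher in Zn4 (3.76%) and 249 lower (1.96%). The rises were also larger: 202 genes were higher by at least 2-fold on the log2(RPKM + 1) scale (1.59%) and 48 lower (0.377%), and 53 were higher and 4 lower by at least 4-fold. The median over all tested genes was -0.02. Genes called higher had a median level of 6.98 RPKM in Zn4 and 1.91 RPKM in WT, and 166 of them were under 1 RPKM in both WT libraries. Genes called lower had a median level of 4.55 RPKM in Zn4 and 8.79 RPKM in WT. Without regard to any test, both Zn4 libraries lay above both WT libraries for 2415 genes (19.0%) and below them for 2652 genes (20.8%).

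The calls borrow the spread of the stimulated libraries. A fit of the 4 resting libraries alone called 112 genes, of which 101 were higher and 11 lower in Zn4. Of the 15 largest rises 13 were called in that fit, all but Pcsk1 and Pmaip1, and of the 15 largest falls 5 were: Fam46a, H2-Ob, Gpr174, Tnfrsf25 and Wfikkn2. Of the other 68 called genes that the naming rule gives, 9 were called in it: Igfbp4, Cxcr3, Il18r1, Lag3, 5830411N06Rik, Itgam, Iigp1, Socs3 and Bag3. Without the 12 h libraries the count was 455, and without Zn4 replicate 2 it was 437.

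**Figure D1:**
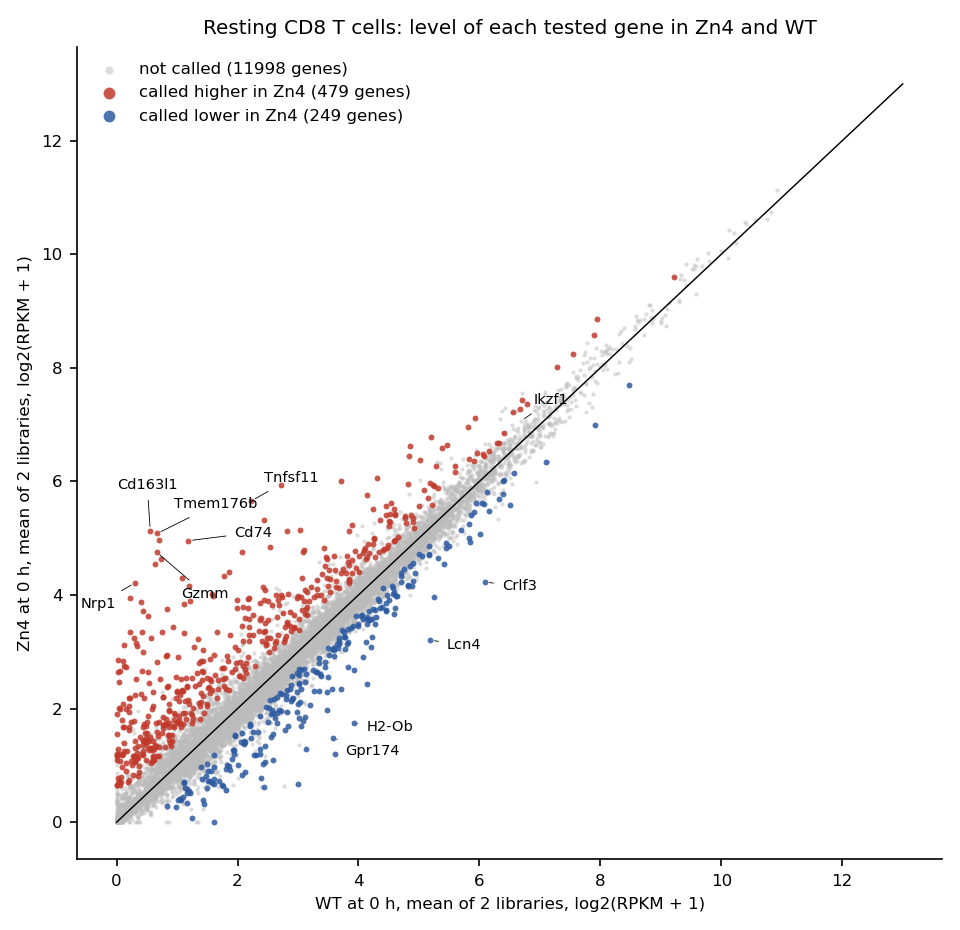
Each point is 1 of 12726 tested genes, with its mean log2(RPKM + 1) over the 2 Zn4 libraries of 0 h on the vertical axis and over the 2 WT libraries of 0 h on the horizontal axis; the line marks equal levels. The 479 genes called higher in Zn4 reach farther from the line than the 249 called lower, above all where WT cells were near 0.

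The largest rise was in Cd163l1, a scavenger receptor gene that in mice is known from gamma-delta T cells. It stood at 33.6 and 34.6 RPKM in the Zn4 libraries, against 0.543 and 0.402 RPKM in the WT libraries, or 3038 and 3221 reads against 48 and 34 reads. The replicates lay close together and the genotypes did not overlap (log2 difference 4.58 ± 0.15, adjusted p = 7.46e-07). Its neighbours moved with it. Olfr524, a gene of the olfactory receptor family that ends 12302 bases before Cd163l1 on the other strand of chromosome 7, stood at 12.8 and 16.4 RPKM in Zn4 and at 0.111 and 0.232 RPKM in WT (3.73 ± 0.14, adjusted p = 1.38e-06). 5830411N06Rik, a second scavenger receptor gene 16138 bases beyond Cd163l1 on the same strand, stood at 10.3 and 8.05 RPKM in Zn4 and at 1.33 and 1.0 RPKM in WT (2.23 ± 0.15, adjusted p = 4.04e-05). The 3 genes follow each other among the tested genes over 102238 bases, chr7:140198499-140300736 in GRCm38.

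Tmem176b and Tmem176a, neighbours on chromosome 6 that encode related membrane proteins known from type 17 lymphocytes and dendritic cells, rose as a pair. Tmem176b stood at 34.7 and 31.2 RPKM in Zn4, against 0.648 and 0.539 RPKM in WT (4.41 ± 0.17, adjusted p = 1.38e-06). Tmem176a stood at 30.3 and 30.3 RPKM in Zn4, against 0.628 and 0.621 RPKM in WT (4.27 ± 0.14, adjusted p = 7.46e-07). The 2 genes lie on opposite strands and their annotated spans overlap by 578 bases. The libraries were stranded, but the strand setting of the counting is not given in the sources used here, so reads of the overlap may count for either gene.

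In the list of type 17 and gamma-delta T cell genes 5 of 13 tested members were higher (38.5%, beside 3.76% of all tested genes) and none lower. They were Cd163l1, Tmem176b, Tmem176a, 5830411N06Rik and Kit. Only 14 of the 28 genes of the list were in the table. Cd163l1 and the Tmem176 pair were under 1 RPKM in every WT library and passed the minimum only through Zn4 libraries. The list was written with earlier results of these data known, so its share describes the members and tests nothing. The median difference was 0.35. Tcrg-C2, another constant region of the gamma-delta receptor, was not called and stood at 1.44 and 2.43 RPKM in Zn4 and at 1.4 and 1.95 RPKM in WT (adjusted p = 0.906). Kit, the receptor of stem cell factor, stood at 4.63 and 5.07 RPKM in Zn4 and at 1.04 and 1.41 RPKM in WT (1.40 ± 0.17, adjusted p = 0.00123).

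The stretch before the start site is shown for 4 genes because they include the largest rise, a member of the overlapping pair, a rise of a silent surface receptor and the marker that fell. The sequences are RefSeq promoters of build GRCm38.p6, the 250 bases before the annotated start, 5′ to 3′ on the strand of the gene. Capitals mark each GGGAA, the core of the motif that Ikaros proteins bind, or its reverse complement TTCCC.
Cd163l1, chr7:140218017-140218266, plus strand: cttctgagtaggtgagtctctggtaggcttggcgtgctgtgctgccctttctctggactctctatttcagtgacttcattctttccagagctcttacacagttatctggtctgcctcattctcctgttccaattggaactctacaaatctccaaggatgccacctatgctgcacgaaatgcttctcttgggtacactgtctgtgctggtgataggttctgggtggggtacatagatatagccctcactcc
Tmem176a, chr6:48841233-48841482, plus strand: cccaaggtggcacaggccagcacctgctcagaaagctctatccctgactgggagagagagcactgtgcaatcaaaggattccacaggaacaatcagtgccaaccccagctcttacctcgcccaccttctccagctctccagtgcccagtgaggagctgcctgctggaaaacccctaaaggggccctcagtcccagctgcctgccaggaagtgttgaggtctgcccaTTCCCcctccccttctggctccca
Nrp1, chr8:128358823-128359072, plus strand: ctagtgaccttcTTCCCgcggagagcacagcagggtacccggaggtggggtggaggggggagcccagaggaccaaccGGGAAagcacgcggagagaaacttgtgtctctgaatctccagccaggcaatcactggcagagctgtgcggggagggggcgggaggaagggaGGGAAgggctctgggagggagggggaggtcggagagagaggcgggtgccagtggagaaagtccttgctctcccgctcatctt
H2-Ob, chr17:34238655-34238904, plus strand: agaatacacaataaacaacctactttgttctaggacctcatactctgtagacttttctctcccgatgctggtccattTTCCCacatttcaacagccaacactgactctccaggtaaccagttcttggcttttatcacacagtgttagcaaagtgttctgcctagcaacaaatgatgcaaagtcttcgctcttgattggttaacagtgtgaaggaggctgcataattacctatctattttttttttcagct

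The window of Nrp1 held 3 such matches, those of Tmem176a and H2-Ob 1 each and that of Cd163l1 none. Over both strands, at least 1 match stood in 59.0% of 351 promoters of genes called higher, in 61.9% of 189 promoters of genes called lower and in 58.2% of 8572 promoters of all tested genes that had a window. Over all 27025 RefSeq promoters the share was 55.9%. The share in genes that differed in Zn4 was near that of all tested genes, and a match of 5 letters describes the window without showing a bound site.

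Gzmm, which encodes the granule protease granzyme M, led the cytotoxic genes. It stood at 36.8 and 18.3 RPKM in Zn4, against 0.637 and 0.528 RPKM in WT (4.09 ± 0.26, adjusted p = 3.19e-05). Both Zn4 libraries lay far above WT although they differed between themselves. Gzma, another granzyme, stood at 5.22 and 2.62 RPKM in Zn4 and at 0.4 and 0.0931 RPKM in WT (1.94 ± 0.35, adjusted p = 0.0119), and its call ended without Zn4 replicate 1 (0.0732) or WT replicate 2 (0.0666). The third called member of the list was the protease inhibitor Serpinb6b, whose call ended without any of the 4 libraries (0.0674 to 0.12). The list had 3 of 19 tested members higher, 1 without WT replicate 2, and a median difference of 0.11. Its share of 15.8% higher stands beside 3.76% of all tested genes. Gzma was under 1 RPKM in every WT library, and Gzmm in every WT library but replicate 2 of 12 h (1.02 RPKM). Both passed the minimum only with the help of Zn4 libraries, so the share describes the members and tests nothing. Gzmb stood at 1.72 and 0.993 RPKM in Zn4 and at 1.54 and 0.951 RPKM in WT (adjusted p = 0.965), and the pore protein gene Prf1 at 18.6 and 8.41 RPKM in Zn4 and at 25.9 and 15 RPKM in WT (adjusted p = 0.398).

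Receptors and regulators of memory and effector T cells were higher in 6 of 22 tested cases (27.3%, beside 3.76% of all tested genes). None was lower, and the median difference was 0.33. Cxcr3, a chemokine receptor of effector cells, stood at 15 and 10.4 RPKM in Zn4 and at 0.79 and 0.756 RPKM in WT (2.93 ± 0.24, adjusted p = 0.00012). Il18r1, a chain of the interleukin-18 receptor, stood at 63.3 and 62.9 RPKM in Zn4 and at 12.6 and 11.6 RPKM in WT (2.30 ± 0.19, adjusted p = 0.00012). Its partner chain Il18rap was not called, with 1.69 and 0.785 RPKM in Zn4 and 0.896 and 0.799 RPKM in WT (adjusted p = 0.676). The other called members were the transcription factors Tbx21, Eomes and Prdm1 and the integrin chain Itgb1.

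The regulators of effector fate were uneven between replicates. Tbx21, which encodes T-bet, stood at 7.58 and 2.83 RPKM in Zn4 and at 1.07 and 0.296 RPKM in WT. Eomes, a related T-box factor, stood at 19.1 and 10.9 RPKM in Zn4 and at 4.48 and 2.76 RPKM in WT. Prdm1, which encodes Blimp-1, stood at 4.51 and 2.88 RPKM in Zn4 and at 1.1 and 0.394 RPKM in WT (1.43 ± 0.20, adjusted p = 0.00302). The calls of Tbx21 and Eomes ended without Zn4 replicate 1 (adjusted p = 0.08 for Tbx21 and 0.107 for Eomes) or WT replicate 2 (0.1 and 0.0978). In all 3, replicate 1 was the higher library of both genotypes, and Ly6c2, a surface marker of memory cells, showed the same order, at 27.4 and 9.65 RPKM in Zn4 and at 6.83 and 3.97 RPKM in WT. Ly6c2 was not called (adjusted p = 0.0886), though it was without Zn4 replicate 2 (0.0134). Cd44, Il2rb (adjusted p = 0.2) and Klrd1 (0.174) were not called either.

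**Figure D2:**
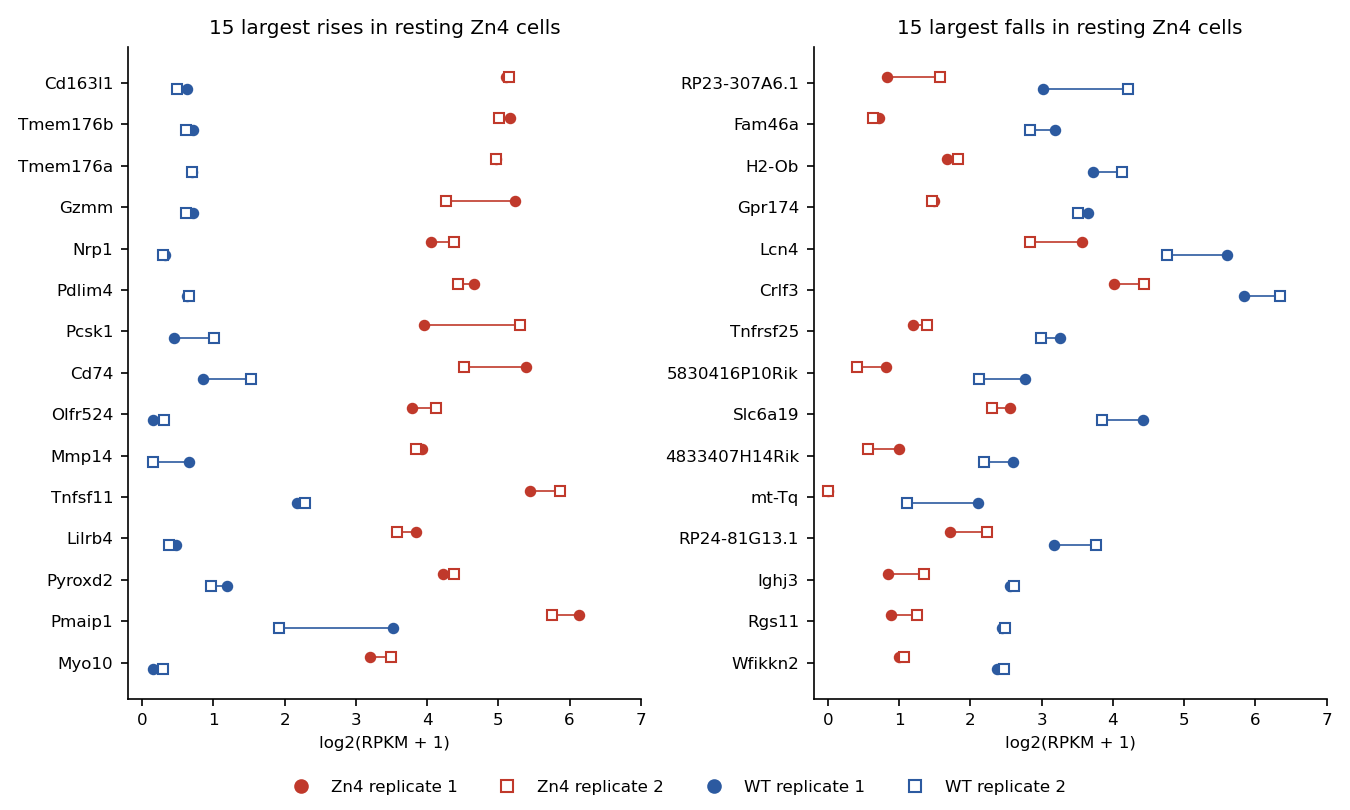
Each point is 1 library, with log2(RPKM + 1) on the horizontal axis, for the 15 largest rises (left) and the 15 largest falls (right) among called genes whose genotypes do not overlap. Most rises start from less than 1 RPKM in WT, and replicates of Gzmm, Pcsk1, Cd74 and Pmaip1 lie farthest apart among them.

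Nrp1, a coreceptor for semaphorins and vascular growth factors that also marks regulatory T cells formed in the thymus, stood at 15.6 and 19.7 RPKM in Zn4, against 0.245 and 0.221 RPKM in WT (3.91 ± 0.19, adjusted p = 4.5e-06). Among genes of CD4 and regulatory T cells 3 of 15 were higher, Nrp1 with the Ikaros family members Ikzf2 and Ikzf4, and none was lower. Over all tested genes 3.76% were higher and 1.96% lower. The count of higher CD4 and regulatory T cell genes was 2 without the 12 h libraries and 1 in the resting libraries alone. Tnfsf11, which encodes the osteoclast factor RANKL, stood at 42.7 and 57.3 RPKM in Zn4 and at 3.51 and 3.88 RPKM in WT (3.43 ± 0.26, adjusted p = 7.16e-05). It was the only member of the TNF superfamily called higher of 28 tested, against 2 lower. These shares, 3.6% and 7.1%, stand beside 3.76% and 1.96% of all tested genes. The count of higher members rose without Zn4 replicate 1. The chemokine receptor Ccr8, known from regulatory and type 2 T cells, stood at 6.01 and 3.69 RPKM in Zn4 and at 0.338 and 0.177 RPKM in WT (2.19 ± 0.24, adjusted p = 0.00067). Of 33 homing and adhesion genes 5 were called higher and 2 lower, with 1 lower without any of the 4 libraries. Shares in the homing and adhesion list were 15.2% higher and 6.1% lower, beside 3.76% and 1.96% of all tested genes. The integrin chain Itgb3 stood at 10.3 and 11.5 RPKM in Zn4 and at 3.24 and 3.86 RPKM in WT (1.39 ± 0.18, adjusted p = 0.00164). Cxcr6, a homing receptor for tissues such as the liver, was lower, at 3.05 and 2.15 RPKM in Zn4 and at 8.85 and 5.61 RPKM in WT (-1.18 ± 0.22, adjusted p = 0.014), a call that ended without Zn4 replicate 2 (0.0948) or WT replicate 1 (0.0682).

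Genes that serve class II antigen presentation moved in opposite directions. Of the tested members 42.9% were higher and 14.3% lower, beside 3.76% and 1.96% of all tested genes. Cd74, the invariant chain, stood at 40.9 and 22 RPKM in Zn4, against 0.803 and 1.88 RPKM in WT (3.77 ± 0.29, adjusted p = 7.19e-05). H2-DMa, a chain of the peptide exchange factor H2-DM, stood at 27.6 and 27 RPKM in Zn4 and at 12.3 and 7.82 RPKM in WT (1.39 ± 0.25, adjusted p = 0.0118). H2-Ob, a chain of H2-O, which restrains H2-DM, stood at 2.18 and 2.55 RPKM in Zn4 and at 12.2 and 16.4 RPKM in WT (-2.17 ± 0.18, adjusted p = 0.000145). The other chain gene of H2-O went the other way: H2-Oa stood at 17.6 and 15.8 RPKM in Zn4 and at 8.95 and 7.75 RPKM in WT (0.92 ± 0.20, adjusted p = 0.0289). The H2-Oa call ended without any of the 4 libraries (0.0637 to 0.125), and that of H2-DMa without Zn4 replicate 1 (0.0594), Zn4 replicate 2 (0.0611) or WT replicate 2 (0.0641). In all, 3 of 7 tested class II genes were higher and 1 was lower, and 1 was higher without Zn4 replicate 1, Zn4 replicate 2 or WT replicate 2. B cells express these genes strongly; of the B cell markers Ighm is given above, and Cd79b stood at 1.55 and 1.11 RPKM in Zn4 and at 2.05 and 1.54 RPKM in WT (adjusted p = 0.473). The part of B cell RNA in these differences was not tested beyond those values.

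Of the 8 tested myeloid and dendritic cell genes 3 were higher (37.5%, beside 3.76% of all tested genes) and none lower. The list held 24 genes, of which only these 8 were in the table. Itgam passed the minimum only through the resting Zn4 libraries, so the share describes the members and tests nothing. Itgam, a marker of myeloid and some natural killer and memory T cells, stood at 1.04 and 1.16 RPKM in Zn4 and at 0.19 and 0.179 RPKM in WT (0.83 ± 0.09, adjusted p = 0.000852). Lgals3, which encodes galectin-3, stood at 9.31 and 3.35 RPKM in Zn4 and at 0.147 and 0.044 RPKM in WT (2.61 ± 0.44, adjusted p = 0.00774). The summed level of the list was 157 and 127 RPKM in Zn4 and 102 and 97.0 RPKM in WT, most of it from Bst2 and Ctss, which T cells also express. Cebpb, a myeloid transcription factor, stood at 1.12 and 1.08 RPKM in Zn4 and at 1.4 and 0.843 RPKM in WT.

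The remaining large rises spanned other functions. Pdlim4, which encodes an actin-associated adaptor, stood at 24.2 and 20.6 RPKM in Zn4 and at 0.549 and 0.575 RPKM in WT (3.90 ± 0.20, adjusted p = 9.57e-06). Pcsk1, a prohormone convertase of endocrine cells, stood at 14.5 and 38.4 RPKM in Zn4 and at 0.361 and 1.02 RPKM in WT (3.89 ± 0.36, adjusted p = 0.000228). Its Zn4 libraries lay apart, but both stood far above WT. Mmp14, a membrane metalloprotease, stood at 14.2 and 13.3 RPKM in Zn4 and at 0.571 and 0.11 RPKM in WT (3.48 ± 0.23, adjusted p = 3.56e-05). Pmaip1, the death-promoting BCL2 family member Noxa, stood at 68.8 and 52.8 RPKM in Zn4 and at 10.5 and 2.78 RPKM in WT (3.22 ± 0.40, adjusted p = 0.00141). Pyroxd2, a predicted oxidoreductase, stood at 17.7 and 19.8 RPKM in Zn4 and at 1.29 and 0.957 RPKM in WT (3.22 ± 0.13, adjusted p = 1.63e-06). Myo10, a myosin of cell protrusions, stood at 8.16 and 10.3 RPKM in Zn4 and at 0.112 and 0.226 RPKM in WT (3.12 ± 0.20, adjusted p = 2.91e-05). Lilrb4 (3.28 ± 0.18) and its near-identical neighbour Gp49a (3.11 ± 0.33), inhibitory and related receptors, were both higher, and how the counting split their shared reads is uncertain.

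Further rises were read off after the values were known. Ctnnd1, a catenin of cell contacts, stood at 5.01 and 7.74 RPKM in Zn4 and at 0.00534 and 0.0279 RPKM in WT (2.83 ± 0.16), and its relative Ctnnd2 at 7.64 and 7.72 RPKM in Zn4 and at 0.066 and 0.104 RPKM in WT (3.0 ± 0.12). Tln2, a talin that links integrins to actin, stood at 4.56 and 6.19 RPKM in Zn4 and at 0.0576 and 0.0268 RPKM in WT (2.60 ± 0.18). Spry2, an inhibitor of receptor tyrosine kinase signals, stood at 9.01 and 9.35 RPKM in Zn4 and at 0.393 and 0.274 RPKM in WT (2.93 ± 0.11). Igf1r, the receptor of insulin-like growth factor, stood at 29.8 and 39.0 RPKM in Zn4 and at 5.3 and 6.93 RPKM in WT (2.31 ± 0.17). Epas1, a hypoxia-inducible factor, stood at 12.9 and 15.1 RPKM in Zn4 and at 1.06 and 1.6 RPKM in WT (2.69 ± 0.13). All 6 genes were taken from called genes whose genotypes do not overlap, so that order of the libraries was set by the choice.

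Among the falls, Gpr174, a receptor for lysophosphatidylserine, had close replicates, at 1.82 and 1.76 RPKM in Zn4 and at 11.5 and 10.4 RPKM in WT (-2.10 ± 0.09, adjusted p = 1.63e-06). Fam46a, a gene of a poly(A) polymerase family, stood at 0.643 and 0.546 RPKM in Zn4 and at 8.07 and 6.12 RPKM in WT (-2.33 ± 0.28, adjusted p = 0.00109). Lcn4, a lipocalin, stood at 10.9 and 6.13 RPKM in Zn4 and at 47.7 and 26.2 RPKM in WT (-1.99 ± 0.28, adjusted p = 0.00267). None of these 3 genes was silent in WT cells. That the Zn4 libraries lay below both WT libraries in each was set by the naming rule. Crlf3, a gene named for its likeness to cytokine receptors, was the most abundant of the 15 falls, at 15.2 and 20.7 RPKM in Zn4 and at 56.3 and 80.5 RPKM in WT (-1.87 ± 0.18, adjusted p = 0.00028). Tnfrsf25, the receptor of the cytokine TL1A, stood at 1.29 and 1.63 RPKM in Zn4 and at 8.58 and 6.97 RPKM in WT (-1.83 ± 0.25, adjusted p = 0.00239). Slc6a19, a transporter of neutral amino acids, stood at 4.87 and 3.95 RPKM in Zn4 and at 20.5 and 13.4 RPKM in WT (-1.71 ± 0.23, adjusted p = 0.00253).

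Several of the other falls were small or carried no gene name. Rgs11, a regulator of G protein signals, stood at 0.853 and 1.37 RPKM in Zn4 and at 4.42 and 4.6 RPKM in WT (-1.39 ± 0.16), and Wfikkn2, a secreted binding protein of the myostatin pathway, at 0.988 and 1.09 RPKM in Zn4 and at 4.17 and 4.54 RPKM in WT (-1.39 ± 0.19). The clone-named RP23-307A6.1 (-2.41 ± 0.41) lost its call without Zn4 replicate 1 (adjusted p = 0.0544), while the clone-named RP24-81G13.1 (-1.50 ± 0.22) did not depend on 1 library. The noncoding gene 4833407H14Rik (-1.61 ± 0.35) lost its call without any of the 4 libraries (0.0541 to 0.147), and 5830416P10Rik (-1.82 ± 0.21) kept it. The short genes mt-Tq, with no reads in either Zn4 library and 6 and 2 reads in WT, and Ighj3, with 1 and 2 reads in Zn4 and 6 and 6 in WT, rest on too few reads for a fold to be read from them. The Ighj3 call ended without any of the 4 libraries (0.0727 to 0.167), and that of mt-Tq without Zn4 replicate 1 (0.0682), Zn4 replicate 2 (0.0747) or WT replicate 1 (0.0522).

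Of 27 naive-state genes 1 was higher and 2 were lower, shares of 3.7% and 7.4% beside 3.76% and 1.96% of all tested genes, with a median of -0.07. The lower count was 1 without any of the 4 libraries. The called genes included Igfbp4, a binding protein of insulin-like growth factors, at 78.2 and 86.1 RPKM in Zn4 and 34.0 and 29.1 RPKM in WT (1.35 ± 0.22, adjusted p = 0.00659), and Ifngr1, a chain of the interferon-gamma receptor, at 133 and 120.0 RPKM in Zn4 and 261 and 220.0 RPKM in WT (-0.92 ± 0.12, adjusted p = 0.00175). Btla, an inhibitory receptor, was lower by a small step (-0.34 ± 0.08, adjusted p = 0.0385) that was lost without any of the 4 libraries (0.0759 to 0.141). Tcf7 stood at 505 and 470.0 RPKM in Zn4 and at 502 and 576 RPKM in WT (adjusted p = 0.642), and Klf2 at 253 and 229 RPKM in Zn4 and at 324 and 304 RPKM in WT (adjusted p = 0.511). Among 13 genes of the T cell receptor and CD8 coreceptor only Cd5 was called, as lower (7.7%, beside 1.96% of all tested genes). Cd5, a brake on receptor signals, stood at 47.7 and 47.5 RPKM in Zn4 and at 70.2 and 63.6 RPKM in WT (-0.48 ± 0.09, adjusted p = 0.0151). The Cd5 call ended without Zn4 replicate 1 (0.0714), Zn4 replicate 2 (0.0813) or WT replicate 1 (0.0676).

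Activation and immediate early genes leaned upward. In 23 of 32 tested members both Zn4 libraries lay above both WT libraries, which held for 19.0% of all tested genes. The median difference was 0.76. Of the 32 members 9 were called higher (28.1%, beside 3.76% of all tested genes) and none lower. The count depended on single libraries: it was 0 without Zn4 replicate 2, 5 without WT replicate 2 and 3 without the 12 h libraries. The called members were the nuclear receptors Nr4a1 and Nr4a2, the early growth response factors Egr1 and Egr2, the phosphatases Dusp2 and Dusp6, Irf4, Cd69 and the transferrin receptor Tfrc. Nr4a1, a reporter of receptor signals, stood at 94.6 and 103 RPKM in Zn4 and at 49.9 and 37.0 RPKM in WT (1.18 ± 0.20, adjusted p = 0.00772). Irf4, a factor graded with receptor signals, stood at 110.0 and 67.4 RPKM in Zn4 and at 45.2 and 16.7 RPKM in WT (1.60 ± 0.37, adjusted p = 0.0385). Egr2 stood at 11.3 and 20.3 RPKM in Zn4 and at 6.46 and 5.86 RPKM in WT (1.18 ± 0.24, adjusted p = 0.0183). The calls of Dusp6 and Irf4 ended without Zn4 replicate 1 (0.0889 for Dusp6 and 0.171 for Irf4), Zn4 replicate 2 (0.19 and 0.0526) or WT replicate 2 (0.162 and 0.0834), that of Egr2 without Zn4 replicate 2 (0.0727), WT replicate 1 (0.0574) or WT replicate 2 (0.081), and that of Nr4a1 without Zn4 replicate 2 (0.0534). Il2ra and Tnfrsf9, receptors induced by activation, were not called, with Il2ra at 0.442 and 1.14 RPKM in Zn4 and at 0.376 and 0.594 RPKM in WT (adjusted p = 0.519) and Tnfrsf9 at 2.4 and 3.31 RPKM in Zn4 and at 1.23 and 2.94 RPKM in WT (adjusted p = 0.481).

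Genes downstream of the T cell receptor were higher in 3 of 36 cases (8.3%, beside 3.76% of all tested genes), with a median of 0.08. Lat, the membrane scaffold of receptor signals, stood at 383 and 378 RPKM in Zn4 and at 276 and 204 RPKM in WT (0.68 ± 0.13, adjusted p = 0.0145). None of the 3 calls, Lat, Sh2d2a and Pag1, held without Zn4 replicate 2 (0.0739, 0.209 and 0.0735). Of 51 T cell transcription factors 4 were higher (7.8%, beside 3.76% of all tested genes), Irf4, Hopx, Plagl1 and Nfil3, and none lower. Plagl1 was under 1 RPKM in every WT library and passed the minimum only through Zn4 libraries, so this share describes the members and tests nothing. Hopx, a cofactor of effector T cells, stood at 15.6 and 11 RPKM in Zn4 and at 6.16 and 3.88 RPKM in WT (1.26 ± 0.20, adjusted p = 0.00527). Without WT replicate 2, 1 of the 51 factors was called, with Plagl1 (0.0566) and Nfil3 (0.0937) among those lost, and 2 were called without Zn4 replicate 1. Of 13 inhibitory receptors 3 were called higher (23.1%) and 2 lower (15.4%), beside 3.76% and 1.96% of all tested genes. The share of higher receptors likewise tests nothing, since Lair1 passed the minimum only through the resting Zn4 libraries. The count of lower members fell when any 1 of the 4 libraries was left out. Lag3, a receptor for class II molecules, stood at 1.32 and 1.42 RPKM in Zn4 and at 0.0926 and 0.155 RPKM in WT (1.08 ± 0.17, adjusted p = 0.00495), and Cd72 and Lair1 were the other rises, both lost without Zn4 replicate 1 (0.0636 and 0.0607).

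Among receptors for lipids, nucleotides and hormones 3 of 29 were higher and 4 lower, with a median of -0.13, and 2 were lower without Zn4 replicate 1, Zn4 replicate 2 or WT replicate 1. In the whole list 10.3% were higher and 13.8% lower, beside 3.76% and 1.96% of all tested genes. Sema4f, a semaphorin, stood at 16.7 and 11.8 RPKM in Zn4 and at 5.48 and 3.57 RPKM in WT (1.47 ± 0.20, adjusted p = 0.00207). The purine receptors P2rx4 (-0.61 ± 0.14, adjusted p = 0.0353) and P2rx7 (-0.65 ± 0.10, adjusted p = 0.00613) were lower, beside Gpr174 and Gpr34. Of 17 regulators of G protein signals 2 were called higher and 3 lower, with 1 higher and 1 lower without Zn4 replicate 2 and 1 higher without WT replicate 2. For these regulators the shares were 11.8% higher and 17.6% lower, beside 3.76% and 1.96% of all tested genes. Of 28 cytokine receptors 3 were called higher (10.7%) and 2 lower (7.1%). Among them was Tgfbr3, a coreceptor of TGF-beta, at 19.1 and 17.2 RPKM in Zn4 and 8.82 and 9.04 RPKM in WT (0.94 ± 0.12, adjusted p = 0.00123). Notch pathway genes were higher in 2 of 19 cases (10.5%, beside 3.76% of all tested genes), Notch1 (0.71 ± 0.14, adjusted p = 0.0187) and Maml3. The Notch1 call ended without Zn4 replicate 2 or WT replicate 1. The Maml3 call ended without Zn4 replicate 1 (0.109), Zn4 replicate 2 (0.0638) or WT replicate 2 (0.101). Of 32 survival and death genes Pmaip1 was higher and Sesn1, a stress-induced inhibitor of growth signals, lower. Each is a share of 3.1%, beside 3.76% higher and 1.96% lower of all tested genes. The Sesn1 call ended without Zn4 replicate 1, Zn4 replicate 2 or WT replicate 2.

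Heat shock and handling stress genes were higher in 1 of 21 cases (4.8%, near the 3.76% of all tested genes). It was Bag3, at 13.3 and 14.8 RPKM in Zn4 and 3.32 and 2.67 RPKM in WT (1.92 ± 0.17, adjusted p = 0.000168). The count was 4 without WT replicate 1 and 2 without Zn4 replicate 1. Their summed level was 2179 and 2084 RPKM in Zn4 and 2183 and 1497 RPKM in WT, and WT replicate 2 was also the lowest of the 4 libraries for Irf4, Nr4a1, Fos and Jun. The part of handling in the early genes was not tested.

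None of 34 genes of G1 and S phase and none of 30 genes of G2 and M phase was called, with medians of 0.02 and -0.01. None of 21 cytokine and chemokine genes was called by limma, at an adjusted threshold that left 728 of the 2332 genes with an unadjusted p under 0.05. Ifng stood at 0.443 and 0.399 RPKM in Zn4 and at 0.0971 and 0.102 RPKM in WT (adjusted p = 0.372), Tnf at 10.9 and 16.1 RPKM in Zn4 and at 5.86 and 5.99 RPKM in WT (adjusted p = 0.142), and Il2 at or below 0.0683 RPKM in each library.

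**Figure D3:**
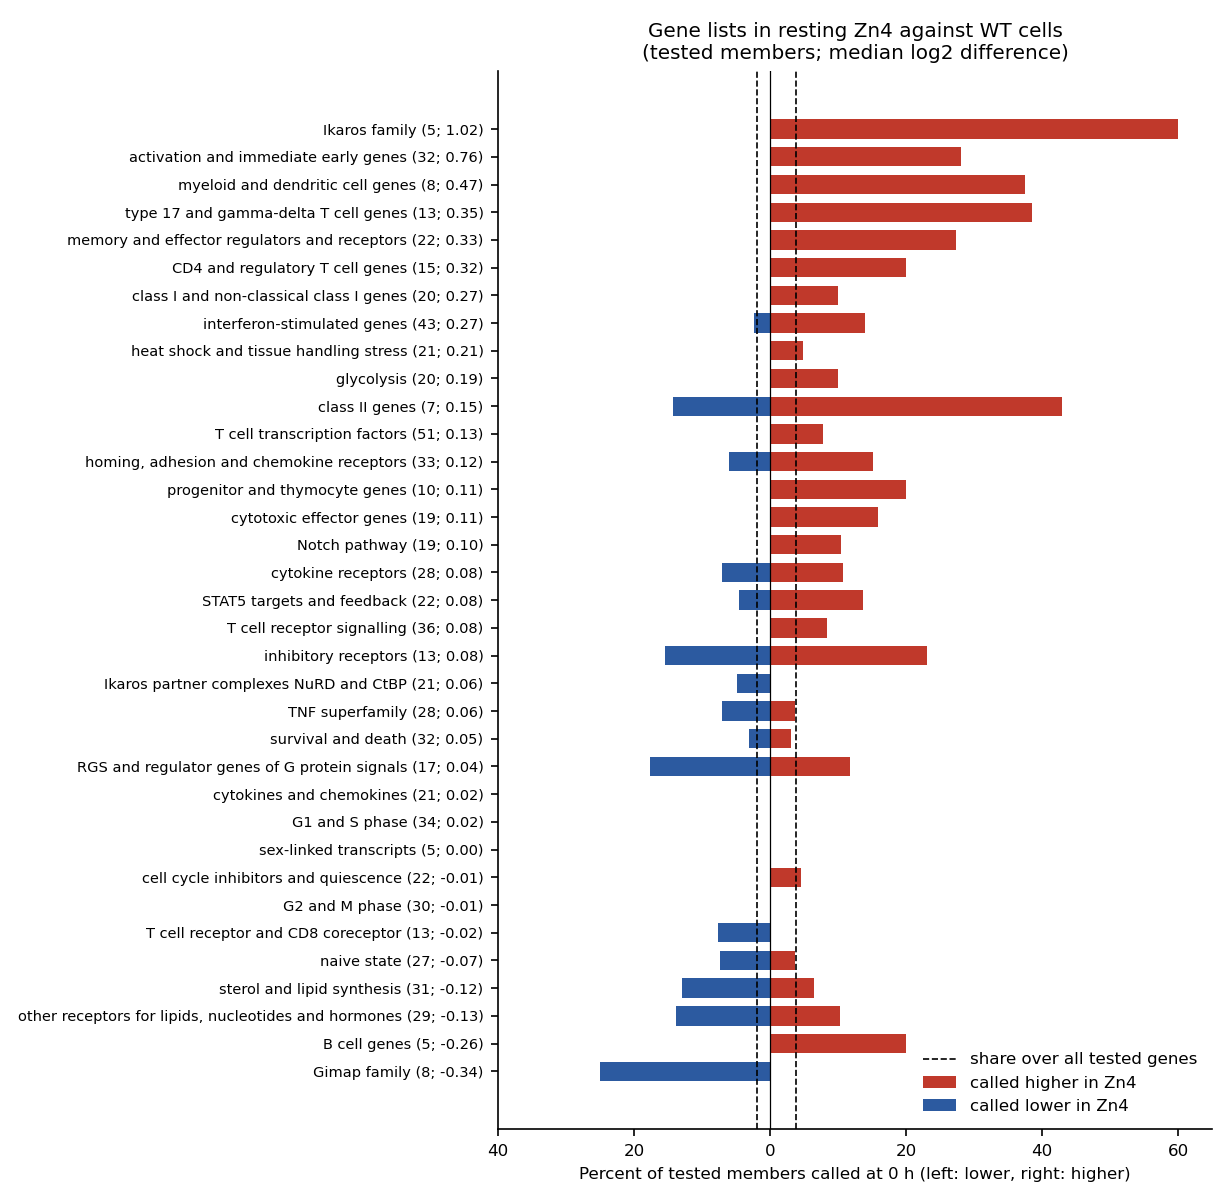
Bars give the percent of tested members of each gene list that were called higher (right) or lower (left) in Zn4 at 0 h, with the tested members and the median log2 difference in brackets; dashed lines are the shares over all tested genes, 3.76% higher and 1.96% lower. Ikaros family, class II, type 17, myeloid and activation genes stand above the line for higher genes, and the lists of G1 and S phase, of G2 and M phase and of cytokines and chemokines have no called member. Members that passed the filter only with the help of Zn4 libraries include Cd163l1 and the Tmem176 pair (type 17) and Itgam (myeloid). They also include Gzmm and Gzma (cytotoxic), Lair1 (inhibitory receptors), Plagl1 (transcription factors), Oas1a (interferon) and Dntt (progenitor).

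The response genes of interferons gave 6 calls upward and 1 downward among 43 tested, and their median was 0.27. Over all tested genes 3.76% were higher and 1.96% lower, so 1 downward call among 43 lies near the share of all tested genes. Iigp1, a GTPase of the interferon-gamma response, stood at 14.3 and 19.7 RPKM in Zn4 and at 0.813 and 1.91 RPKM in WT (2.95 ± 0.30, adjusted p = 0.000405), with its neighbours Gm4951 and Gm5970 called higher as well. The antiviral synthetase gene Oas2 stood at 12.9 and 7.58 RPKM in Zn4 and at 3.21 and 3.22 RPKM in WT, whereas Oasl1 fell to 1.51 and 1.07 RPKM in Zn4, against 3.53 and 4.4 RPKM in WT (-1.12 ± 0.13, adjusted p = 0.00108). Members of this family are alike in sequence, so the split of reads between Oas genes is uncertain. Core genes such as Irf7, at 24.3 and 18.6 RPKM in Zn4 and 22.7 and 22.8 RPKM in WT (adjusted p = 0.844), and Isg15, at 12.0 and 8.38 RPKM in Zn4 and 9.14 and 5.84 RPKM in WT (adjusted p = 0.389), were not called. The count of members called higher was 4 without Zn4 replicate 1 or WT replicate 1, 8 without Zn4 replicate 2 or WT replicate 2 and 1 in the resting libraries alone, and that of members called lower was 3 without Zn4 replicate 1.

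Among STAT5 targets and feedback genes, 3 feedback inhibitors of cytokine signals were called higher. In this list 13.6% were higher and 4.5% lower, beside 3.76% and 1.96% of all tested genes. Cish, a STAT5 target, stood at 6.7 and 5.64 RPKM in Zn4 and at 3.1 and 2.12 RPKM in WT (1.00 ± 0.17, adjusted p = 0.00839). Socs1 stood at 22.8 and 30.7 RPKM in Zn4 and at 13.1 and 15.7 RPKM in WT (0.84 ± 0.15, adjusted p = 0.00967), and Socs3 at 62.9 and 59.6 RPKM in Zn4 and at 28.2 and 26.0 RPKM in WT (1.15 ± 0.25, adjusted p = 0.0289). Stat5b itself was lower, at 48.8 and 58.8 RPKM in Zn4 and 82.1 and 84.3 RPKM in WT (-0.63 ± 0.12, adjusted p = 0.0165). Of 22 STAT5 targets and feedback genes 3 were higher and 1 was lower, but only 1 was higher without Zn4 replicate 1, Zn4 replicate 2 or WT replicate 1. The Socs3 call ended without any of the 4 libraries (0.0771 to 0.114), Cish without Zn4 replicate 1 (0.0552), Socs1 without Zn4 replicate 2 (0.0516) or WT replicate 1 (0.0547), and Stat5b without Zn4 replicate 1 (0.0953), WT replicate 1 (0.0562) or WT replicate 2 (0.0689).

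Genes of sterol synthesis leaned down, with 4 lower and 2 higher of 31 and a median of -0.12. These shares, 12.9% and 6.5%, stand beside 1.96% lower and 3.76% higher of all tested genes. Insig1, a sterol sensor, stood at 13.1 and 10.4 RPKM in Zn4 and at 28.0 and 19.1 RPKM in WT (-0.93 ± 0.17). The 2 genes that were higher, Abca1 and Mylip, export sterol or lower its uptake. Abca1 stood at 8.61 and 7.73 RPKM in Zn4 and at 4.8 and 5.62 RPKM in WT (0.56 ± 0.11, adjusted p = 0.019), and Mylip at 27.9 and 29.6 RPKM in Zn4 and at 19.3 and 16.7 RPKM in WT (0.65 ± 0.11, adjusted p = 0.0081). Without Zn4 replicate 2, 1 member was lower and 1 higher; Insig1 (0.0837) and Mylip (0.0585) were among the calls lost. Without WT replicate 1 or WT replicate 2, 2 members were lower. The Abca1 call ended without Zn4 replicate 1 (0.101) or WT replicate 1 (0.0918). The glycolytic enzyme Hk2 stood at 5.56 and 4.84 RPKM in Zn4 and at 1.64 and 1.42 RPKM in WT (1.29 ± 0.14, adjusted p = 0.000694).

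GTPases of the Gimap family, which support survival of naive T cells, were lower in 2 of 8 cases and higher in none, with a median of -0.34. Over all tested genes 1.96% were lower and 3.76% higher. The count of lower Gimap genes was 1 without the 12 h libraries and 0 in the resting libraries alone. Gimap7 stood at 8.42 and 7.65 RPKM in Zn4 and at 16.1 and 16.6 RPKM in WT (-0.94 ± 0.15, adjusted p = 0.00495). Gimap3, whose copy Gimap5 is close in sequence, stood at 188 and 226 RPKM in Zn4 and at 330.0 and 380.0 RPKM in WT (-0.78 ± 0.19, adjusted p = 0.0427), a call that ended without any of the 4 libraries (0.0723 to 0.174).

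The Ikaros family other than Ikzf1 was higher in 3 of its 4 members, beside 3.76% of all tested genes. The count of higher members was 2 without the 12 h libraries and 0 in the resting libraries alone, so it leans on the spread of the stimulated libraries. Ikzf3, which encodes Aiolos, stood at 44.7 and 48.8 RPKM in Zn4 and at 17.8 and 24.4 RPKM in WT (1.13 ± 0.17, adjusted p = 0.00465). Ikzf4, which encodes Eos, stood at 6.6 and 7.74 RPKM in Zn4 and at 3.14 and 2.92 RPKM in WT (1.02 ± 0.14, adjusted p = 0.00239). Ikzf2, which encodes Helios, stood at 7.49 and 10.5 RPKM in Zn4 and at 1.88 and 3.63 RPKM in WT, and its call ended without Zn4 replicate 2 or WT replicate 1 (adjusted p = 0.105 and 0.0775). Ikzf5 stood at 8.28 and 7.17 RPKM in Zn4 and at 8.45 and 6.9 RPKM in WT (adjusted p = 0.99). Of 21 genes of the partner complexes NuRD and CtBP 1 was called, as lower (4.8%, beside 1.96% of all tested genes). It was the methyl-DNA binding subunit Mbd2, at 27.4 and 27.3 RPKM in Zn4, against 45.8 and 39.8 RPKM in WT (-0.62 ± 0.08, adjusted p = 0.00187).

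The stimulated libraries, which share none with the resting comparison, showed which differences were still there later. Of the 479 genes higher in Zn4 at rest, 231 (48.2%) were higher in Zn4 at 24 h, where 9.40% of all tested genes were, and 165 (34.4%) at 12 h, where 4.85% were. Of the 249 genes lower at rest, 97 (39%) were lower at 24 h, where 9.96% of all tested genes were, and 101 (40.6%) at 12 h, where 8.28% were. At all 3 times 146 genes were higher and 75 lower. Opposite calls were few: 18 genes higher at rest were lower at 24 h and 12 genes lower at rest were higher then. As shares of the later lists, resting calls made up 19.3% of genes higher at 24 h and 7.65% of genes lower, and 26.7% and 9.58% at 12 h. The 3 comparisons use 1 estimate of each gene's spread, so a gene that varies little can be called more readily at every time. The 12 h libraries are uneven in sex-linked transcripts: 4 Y-linked genes summed to 43.4 and 21 RPKM in Zn4 and to 38.9 and 0.00198 RPKM in WT at 12 h, and to at most 0.0209 RPKM in each library of 0 h and 24 h. Xist stood at 0.0258 and 24.3 RPKM in Zn4 and at 0.0023 and 52.6 RPKM in WT at 12 h. These values conflict with the label of female mice, and the 12 h libraries also enter the spread behind the calls at rest.

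The genotype difference itself changed between 0 h and 24 h in 1048 genes (8.24%, interaction term). Of the 15 largest rises 11 were higher in Zn4 at 24 h as well. Tnfsf11 stood at 332 and 166 RPKM in Zn4 and at 11.5 and 10.9 RPKM in WT at 24 h (4.27, adjusted p = 1.69e-05), and Mmp14 (4.15) and Pcsk1 (3.73) also differed by about as much as at rest. Tmem176b stood at 15.4 and 21.5 RPKM in Zn4 and at 0.422 and 0.224 RPKM in WT at 24 h (3.86, adjusted p = 2.87e-06). The cluster on chromosome 7 did not follow this pattern. Cd163l1 stood at 0.305 and 0.51 RPKM in Zn4 and at 0.0358 and 0.0204 RPKM in WT at 24 h (adjusted p = 0.0659), and Olfr524 at 0.295 and 0.0757 RPKM in Zn4 and at 0 in both WT libraries. Pyroxd2 was likewise low in both genotypes at 24 h, with 0.0877 and 0.308 RPKM in Zn4 and 0.0264 and 0.0679 RPKM in WT. Nrp1 stood at 17.3 and 26.5 RPKM in Zn4 and at 12.7 and 12.7 RPKM in WT at 24 h (0.71, adjusted p = 0.0251), so that WT cells no longer lay near 0.

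**Figure D4:**
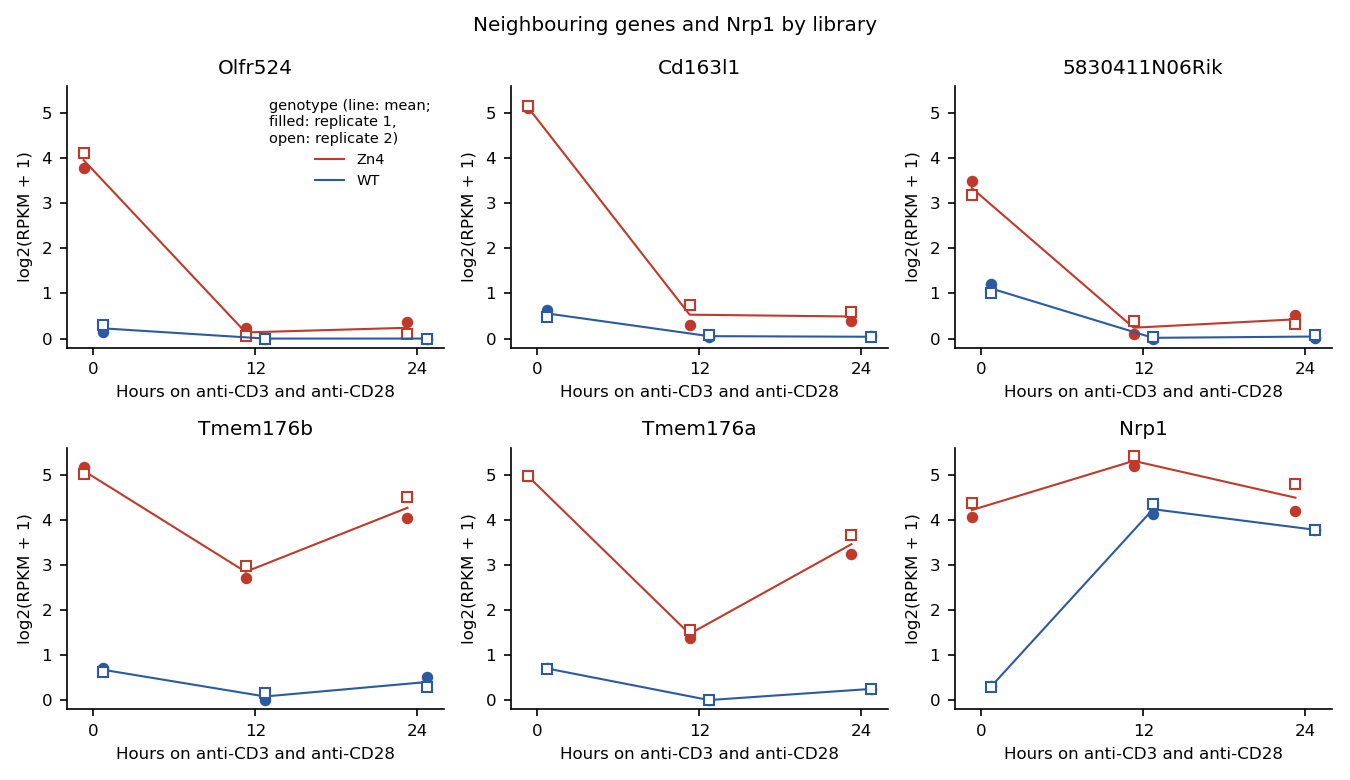
Each panel gives log2(RPKM + 1) of 1 gene in each library against hours of stimulation, with Zn4 points set left of WT points and lines through the group means. Olfr524, Cd163l1 and 5830411N06Rik are high only in Zn4 at 0 h, the Tmem176 pair is higher in Zn4 at all 3 times, and Nrp1 is also high in stimulated WT cells.

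Nrp1 was not alone in this. Of the 166 genes higher in resting Zn4 cells and under 1 RPKM in both resting WT libraries, 42 were at or above 1 RPKM in both WT libraries of 12 h and 53 in both of 24 h. The same count was not made for all genes low in resting WT cells. Every listed gene averaged at least 1.0005 RPKM in some group, so the counts show no trait particular to these 166 genes. Lilrb4 reached 1 RPKM in WT cells and stood at 23.1 and 19.3 RPKM in Zn4 and at 1.69 and 2.25 RPKM in WT at 24 h. Pdlim4 did not, and averaged 3.46 RPKM in Zn4 and 0.0276 RPKM in WT at 24 h.

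Of the 15 largest falls 5 were lower at 24 h and 1 was higher. Gpr174 averaged 7.96 RPKM in Zn4 and 23 RPKM in WT at 24 h (-1.42, adjusted p = 1.69e-05), and Lcn4 averaged 0.281 RPKM in Zn4 and 3.88 RPKM in WT (-1.93, adjusted p = 0.00141). Crlf3, by contrast, averaged 18.3 RPKM in Zn4 and 21 RPKM in WT (-0.18, adjusted p = 0.52). The noncoding gene 4833407H14Rik, lower at rest, averaged 2.19 RPKM in Zn4 and 0.206 RPKM in WT at 24 h (1.27, adjusted p = 0.0308).

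**Figure D5:**
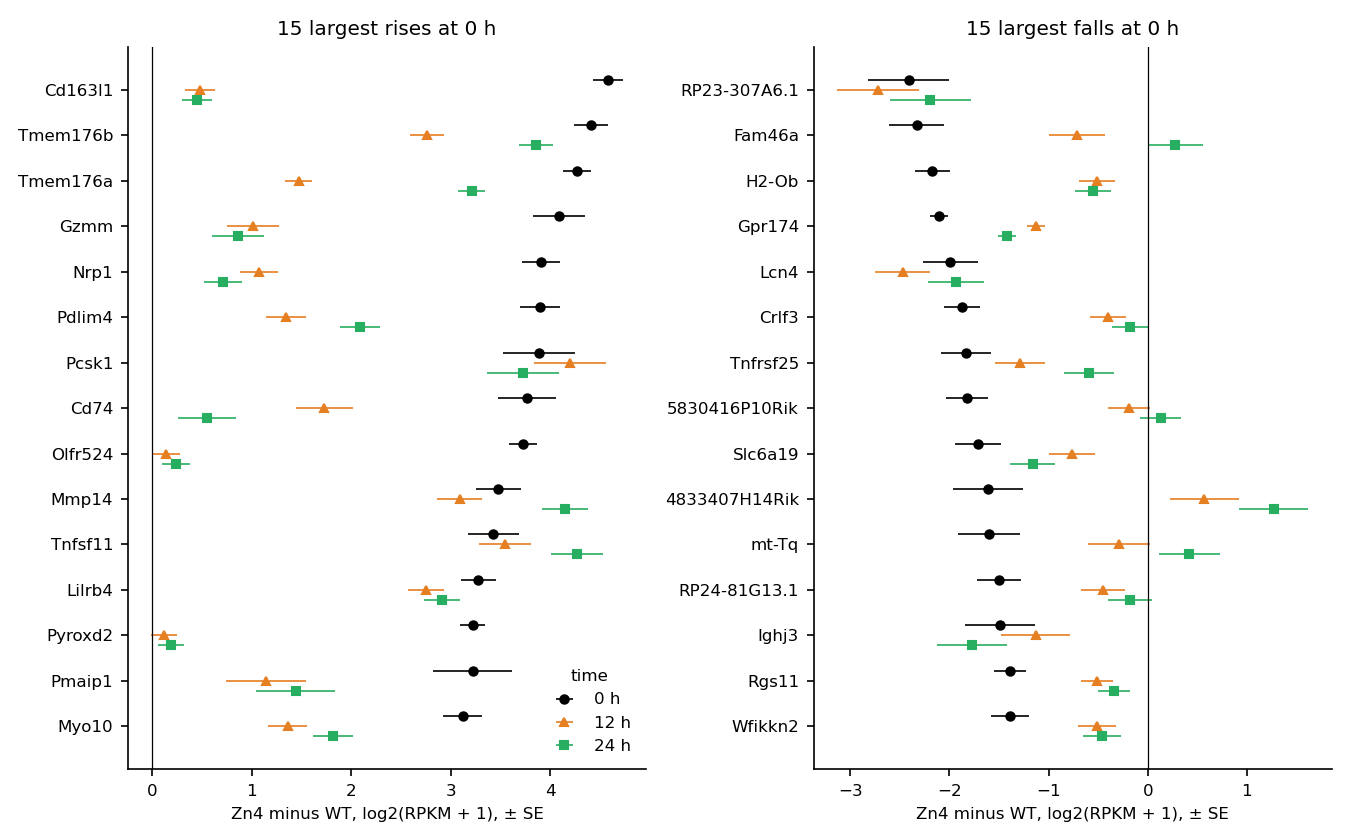
Points give the log2 difference of Zn4 minus WT at 0 h, 12 h and 24 h and bars its SE from the common fit, for the 15 largest rises (left) and falls (right) at 0 h. Differences of Tnfsf11, Mmp14, Pcsk1 and Lilrb4 stay above 2 at each time, while those of Cd163l1, Olfr524 and Pyroxd2 are below 1 at 12 h and 24 h.

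Called genes were spread over the genome. On the autosomes and the X chromosome the share of tested genes called ran from 4.29% on chromosome 16 to 7.85% on chromosome 6. Within 10 Mb of Ikzf1 on chromosome 11, 5 of 117 tested genes were higher and 2 lower, and within 5 Mb none of 12 was called. The counts within 10 Mb lie near the shares over all tested genes, 3.76% higher and 1.96% lower. In 48 places at least 2 genes next to each other in the order of tested genes were called in the same direction, 38 of them higher and 10 lower, with 104 genes in all. The runs of 3 included Mien1, Grb7 and Ikzf3 on chromosome 11 and Slc7a7, Mrpl52 and Mmp14 on chromosome 14. In 15 of these neighbour pairs the annotated genes overlap.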

How the data were processed

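The deposited table holds RPKM values, which the authors made with TopHat2 2.0.12 and HTSeq 0.6.1 on mm10 (GRCm38), per the submitters' processing notes, from stranded single-end mRNA libraries. It has 12892 lines and 12885 symbols; for 7 symbols on 2 lines the upper line was kept. Every listed gene averaged at least 1.0005 RPKM in some group. Whole reads were recovered from the RPKM steps for 99.98% of genes (tolerance 0.02 reads), and totals ran from 24263907 to 33389808 reads over the 12 libraries. In resting libraries 3 reads in a gene of 2 kb are worth 0.0556 to 0.0613 RPKM, a limit that covers counting error only.

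Tests used limma 3.58.1 (R 4.3.3; mean-variance trend, empirical Bayes) on log2(RPKM + 1), with a mean per group over all 12 libraries, 6 residual degrees of freedom, and Benjamini-Hochberg adjustment over 12726 genes. Differences on this scale understate the change of genes near or under 1 RPKM. The fit was checked on simulated data. Alternatives were a pseudocount of 0.1, no filter or 5 RPKM, quantile normalization and median-ratio scaling, robust empirical Bayes, resting libraries alone, no 12 h libraries, replicate blocks, limma-voom on recovered reads with library totals as depth, a 2-fold minimum, and each resting library left out. Genes are named by rule: the 15 largest rises and falls with no overlap, the 4 largest called members of a list, the 5 markers of the comparison and a set of check genes; others are said to be chosen later or are uncalled or further called members of a list. The members, the lists and the rule were chosen with earlier results of these data known. Positions come from GENCODE M21. Results for some items are not reported here.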

Additional observations from a re-analysis of the deposited data

Results flagged for a closer look

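The difference between genotypes changed between rest and 24 h, by a test of the change itself (limma interaction, adjusted p under 0.05), in 18 genes among the 15 largest rises, the 15 largest falls and the 5 markers; over all tested genes 1048 did (8.24%). Each value is the log2 difference at 24 h minus that at 0 h, so it shares the resting libraries that chose the genes. The change was negative for rises whose difference shrank: Cd163l1 (-4.13), Olfr524 (-3.49), Gzmm (-3.23), Cd74 (-3.21), Nrp1 (-3.20), Pyroxd2 (-3.03), Pdlim4 (-1.81), Myo10 (-1.30) and Tmem176a (-1.06). It was positive for falls that shrank or turned round: 4833407H14Rik (2.88), Fam46a (2.62), mt-Tq (2.03, from very few reads), 5830416P10Rik (1.96), Crlf3 (1.68), H2-Ob (1.63), RP24-81G13.1 (1.32), Rgs11 (1.05) and Gpr174 (0.68).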

How the results depend on the processing

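No result changed direction under the alternatives. The count of called genes was 112 in resting libraries alone (101 higher, 11 lower), 455 without the 12 h libraries (128 lower) and 250 with a 2-fold minimum (202 higher, 48 lower); a filter at 5 RPKM left 317 higher. Leaving out each resting library gave 437 to 607 called, 300 to 442 higher and 137 to 218 lower. Calls shared with 24 h moved to 133 higher and 28 lower with the 2-fold minimum and to 57 lower without the 12 h libraries; those shared with 12 h moved to 106 higher and 26 lower with the minimum. With a library left out, 54 to 84 genes were lower at 0 h and 24 h and 56 to 81 lower at 0 h and 12 h. Same-numbered Zn4 and WT libraries deviated together at 0 h (r = 0.61) and less so at 12 h (0.192) and 24 h (0.043). The labels name no pairing, and the main fit uses none. The values of 12 h and 24 h cannot show whether same-numbered libraries of 0 h were paired. If they were, the main fit and the fits with a library left out count that shared deviation as spread. A replicate block at each time point gave 1343 called genes (754 higher, 589 lower), of which 256 lower were shared with 24 h and 255 higher and 258 lower with 12 h, kept the calls of all 98 named genes and added Ikzf1 (adjusted p = 0.035), Il2rb (0.0396) and Ly6c2 (0.0292) among genes given as not called; a shared block gave 753. Shares shared with later times cannot be had from resting libraries alone. Of 98 named genes called, 54 kept the call whichever resting library was left out. Depth limits genes of a few reads, such as mt-Tq and Ighj3.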
